A study of Mus musculus with 2 samples.

Results

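The genes described here were 4 mouse CXC chemokines that attract neutrophils through the receptor CXCR2, *Cxcl1*, *Cxcl2*, *Cxcl3* and *Cxcl5*, and the receptor gene *Cxcr2* itself. These 5 genes were chosen by name out of 27998 genes in the files, with earlier results of these data known. All 5 had unique molecular identifiers (UMIs, each standing for 1 captured RNA molecule) in both libraries. The question was which cell classes held these UMIs, and how this differed between allergic contact dermatitis (ACD) and control ear skin.

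The study profiled dissociated ear skin of ICR mice, 7 to 8 weeks old and male per the methods, by droplet scRNA-seq that counts the 3′ ends of transcripts. The ACD library came from mice sensitized on the back with 1.0% 2,4-dinitrofluorobenzene (DNFB), a hapten, challenged 6 days later on the ears with 0.2% DNFB and sampled 60 hr after that. The control library is labelled healthy control. Each condition was 1 library, and how many mice each pooled is not given in the sources used here, so no difference between conditions has a replicate check and no p-value is given. Dead cells were removed before loading.

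CXCR2 is a G protein-coupled receptor best known on neutrophils. Its ligands are short-lived, inducible mRNAs in fibroblasts, vascular wall cells and myeloid cells, and IL-1, TNF and IL-17 are known inducers that act through NF-κB and through stabilization of the mRNA. In mice CXCL1, CXCL2, CXCL3 and CXCL5 together fill the place that CXCL8 holds in humans, since the mouse genome lacks *Cxcl8*.

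All 4 ligand genes lie on the plus strand of chromosome 5 within 146.579 kb (GRCm38, chr5:90759360-90905938). In order, these are *Cxcl5* (ENSMUSG00000029371, chr5:90759360-90761624), *Cxcl3* (ENSMUSG00000029379, chr5:90786103-90789600), *Cxcl1* (ENSMUSG00000029380, chr5:90891241-90893115) and *Cxcl2* (ENSMUSG00000058427, chr5:90903871-90905938). *Cxcr2* (ENSMUSG00000026180, chr1:74153989-74161246, plus strand) lies elsewhere. *Cxcl2* and *Cxcl3* transcripts share an identical run of 110 bases, but only 16 within the last 400 bases of each, where a 3′ kit counts. No other pair of ligand transcripts shared a run over 23 bases.

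The promoters of 3 ligands are shown because they carry the same NF-κB decamer close to the start of transcription. The last 100 bases before the RefSeq start (GRCm38.p6, plus strand) are printed, with the decamer in capitals:
Cxcl1, chr5:90891145-90891244: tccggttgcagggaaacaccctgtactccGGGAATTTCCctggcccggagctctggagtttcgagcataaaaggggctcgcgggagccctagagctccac
Cxcl2, chr5:90903799-90903898: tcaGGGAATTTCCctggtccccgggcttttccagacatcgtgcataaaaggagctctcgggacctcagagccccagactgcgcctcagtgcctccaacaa
Cxcl3, chr5:90786001-90786100: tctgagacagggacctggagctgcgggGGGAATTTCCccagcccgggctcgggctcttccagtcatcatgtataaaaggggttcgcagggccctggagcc
The decamer, searched with no mismatch on both strands, began 71 bases before the RefSeq start in *Cxcl1*, 97 in *Cxcl2* and 73 in *Cxcl3*. The gene starts given above for *Cxcl1* (chr5:90891241) and *Cxcl2* (chr5:90903871) lie inside the stretches printed, so these distances depend on the annotation. It occurred in 29 of 32851 whole RefSeq promoter windows (0.0883%). These windows are longer than the stretches printed and run past the start (chr5:90890995-90891294 for *Cxcl1*). The *Cxcr2* window did not hold these letters, and the promoter of *Cxcl5* was not analysed here. A match is a description of the sequence and not evidence of binding in these cells.

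After the filter of the study (over 200 and under 5000 genes, no more than 25000 UMIs, mitochondrial UMIs under 8%), 12213 of 12895 control barcodes and 11665 of 13163 ACD barcodes were kept, with medians of 6850 and 7447 UMIs. The libraries shared 50 barcodes, 47 of them among kept cells. Cells were sorted into classes by gates on marker genes that did not include the 5 genes, and are called dFB-like (dermal fibroblast), mural-like (pericyte and vascular smooth muscle) and so on. The markers of each class were over 2-fold higher inside its gate than outside, except 1 of 9 chondrocyte and 1 of 4 B/plasma cell markers, which is how the gate was built and not a finding. Between control and ACD the gates held 5458 and 3126 dFB-like cells, 2411 and 1709 chondrocyte-like, 584 and 336 mural-like, 79 and 295 mononuclear phagocyte-like, 681 and 3075 T/NK/ILC-like, 3 and 204 basophil-like and 3 and 61 neutrophil-like cells. A further 1540 and 965 cells met the dFB and chondrocyte gates equally and were kept apart, 229 and 399 carried markers of another pair of classes (mixed) and 270 and 468 met no gate. Levels are UMIs of a gene per 1000000 UMIs of the class, values in parentheses are exact 95% intervals that cover counting error only, and ratios are log2 of ACD over control.

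Stroma held most *Cxcl1* in both libraries, mononuclear phagocyte-like cells held more *Cxcl2* than any other class, a few dFB-like cells held most *Cxcl5*, and neutrophil-like and basophil-like cells held most *Cxcr2* of ACD skin. Over all kept cells, *Cxcl1* had 31582 UMIs in control and 28244 in ACD. *Cxcl2* had 3913 and 11430, *Cxcl5* 30 and 1437, *Cxcl3* 4 and 50, and *Cxcr2* 14 and 257. At a 2-fold limit with 10 UMIs per 1000000 added to each side, 2 of the 5 genes, *Cxcl2* and *Cxcl5*, were higher in ACD over all kept cells, against 1.99% of 15356 genes with at least 50 UMIs, and none was lower (0.221% of genes). *Cxcr2* and *Cxcl3*, at 2.58 (2.27 to 2.91) and 0.50 per 1000000 in ACD, lie below the added value and stayed inside the limit. With 1 UMI added in place of 10, *Cxcr2* passed too, which makes 3 of 5, against 5.57% of genes higher and 0.729% lower. Totals over all cells also move with the makeup of the library, so the classes are described one by one.

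**Figure D1:**
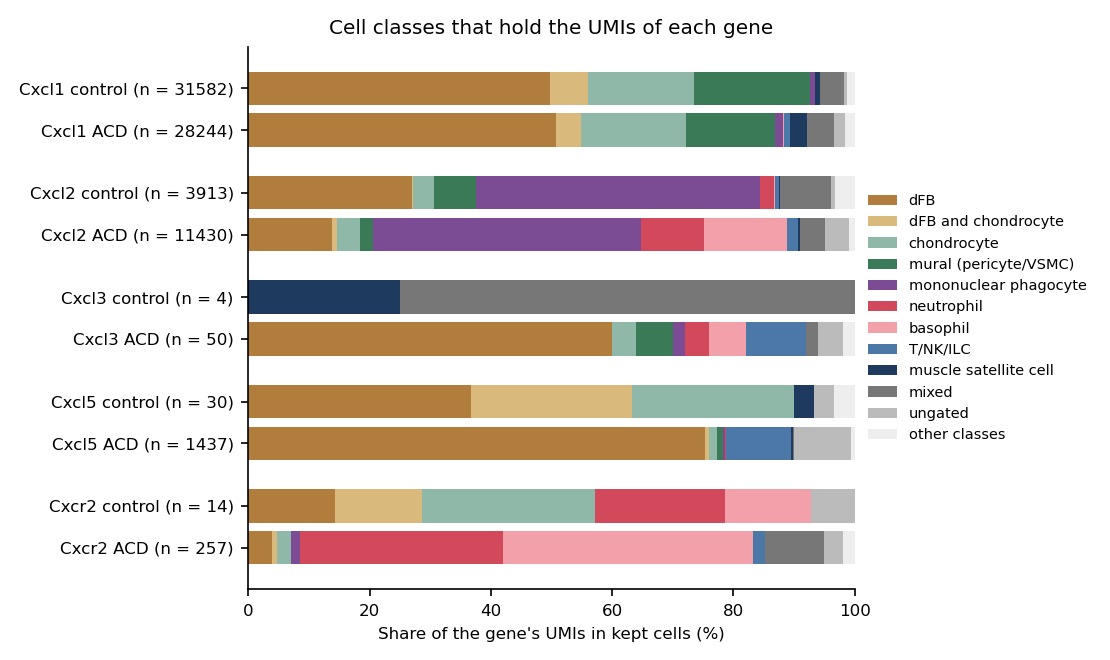
Share of the UMIs of each gene (x axis, percent of the gene's UMIs in kept cells) held by each marker-gated class, for control and ACD, with the number of UMIs as n. Brown and green stroma filled most of the *Cxcl1* bars, mononuclear phagocyte-like cells made up 46.8% and 44.2% of the *Cxcl2* bars, and the *Cxcl5* and *Cxcr2* bars of control rest on 30 and 14 UMIs.

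*Cxcl1*, the best known fibroblast-derived neutrophil attractant of the mouse, was already abundant in the dissociated cells of the control library. Whether dissociation changed its level was not tested. In control, dFB-like cells held 15726 of its 31582 UMIs (49.8%, 49.2 to 50.4%), and in ACD their share was 50.7% (50.1 to 51.3%), with 14316 of 28244 UMIs. Mural-like cells held 6076 (19.2%) and 4159 (14.7%), and chondrocyte-like cells 5516 (17.5%) and 4851 (17.2%). These 3 classes held most *Cxcl1* UMIs in both libraries, whereas T/NK/ILC-like cells, the most numerous leukocytes of ACD, held 20 and 302 UMIs.

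Per class total, the dFB-like level was 359 (353 to 364) in control and 436 (429 to 443) in ACD (log2 0.28, 0.25 to 0.31). This difference was small and depended on the processing, from 0.07 as a mean over cells to 0.67 with all deposited barcodes. Mural-like cells were the other way round, at 2008 (1958 to 2060) in control and 1213 (1177 to 1251) in ACD (log2 -0.73, -0.78 to -0.67). The median depth of mural-like cells also differed, 4683 UMIs in control and 9535 in ACD, and with cells thinned to 2000 UMIs the log2 ratio was -0.77. The chondrocyte-like level was 263 (256 to 270) and 272 (264 to 280). Mononuclear phagocyte-like cells were at 392 (344 to 446) and 164 (148 to 181), where 7 of 19 control cells and 7 of 34 ACD cells with *Cxcl1* carried at least 3 dFB markers.

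At the 2-fold limit, *Cxcl1* was higher in no class with at least 50 UMIs of the gene and lower in 1, the mononuclear phagocyte-like cells, and *Cxcl2* was higher in chondrocyte-like cells, where 1 cell held most of its UMIs, and lower in endothelial-like cells. Of all genes, 3.66% were higher and 3.03% lower in mononuclear phagocyte-like cells, 0.361% and 0.0168% in chondrocyte-like, 2.78% and 0.83% in endothelial-like, 0.994% and 0.39% in mural-like, 0.683% and 0.106% in dFB-like, and 1.37% and 1.52% in T/NK/ILC-like cells.

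Muscle satellite-like cells, the stem cells of skeletal muscle, were the other class above 1000 per 1000000. Their *Cxcl1* level was 1037 (915 to 1170) in 56 control cells and 1625 (1515 to 1742) in 95 ACD cells, below the mural-like level in control and above it in ACD. Endothelial-like cells were at 158 (134 to 185) and 188 (165 to 213), whose intervals overlap. Keratinocyte-like cells had 86.1 (74.3 to 99.2) and 64.0 (52.5 to 77.2). Schwann-like and melanocyte-like cells were at 19.9 to 46.4, and T/NK/ILC-like cells at 6.74 and 14.7.

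The share of cells with a *Cxcl1* UMI was also taken with each cell thinned to 2000 UMIs and shallower cells left out. Mural-like cells were at 55.8% (51.6 to 59.9%) in control and 50.3% (44.8 to 55.8%) in ACD, or 64.6% and 64.3% unthinned. dFB-like cells were at 21.4% (20.4 to 22.6%) and 23.4% (21.9 to 24.9%), or 35.8% and 41.6% unthinned. Chondrocyte-like cells, at 25.7% and 24.5%, cannot serve as the background they were planned to be, since their *Cxcl1* level was within 2-fold of that in dFB-like cells. T/NK/ILC-like cells give a lower background of 1.07% and 2.15% (2.79% and 4.91% unthinned), at median depths of 3629 and 5446 UMIs against 7349.5 and 9612.5 in dFB-like cells. Of 151 ACD T/NK/ILC-like cells with a *Cxcl1* UMI, 12.6% carried UMIs of at least 3 of the 8 dFB markers, against 8.11% of those without, and 1 cell held 63 of the 302 UMIs.

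**Figure D2:**
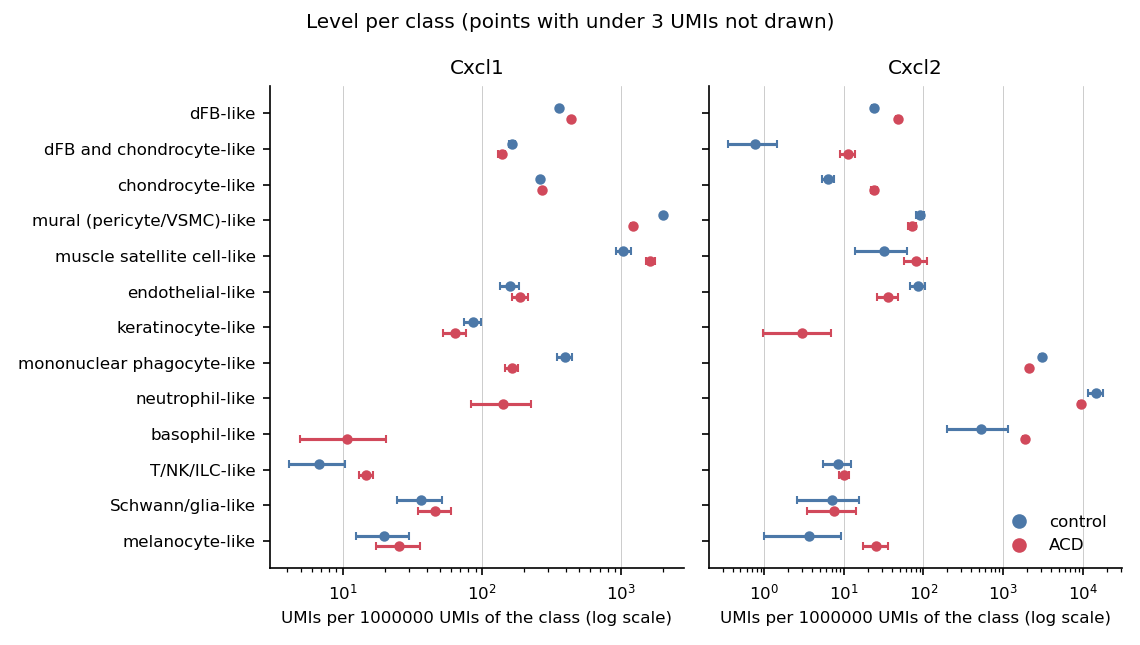
Levels of *Cxcl1* and *Cxcl2* (x axis, UMIs per 1000000 UMIs of the class, log scale) in 13 marker-gated classes, control in blue and ACD in red, with exact 95% Poisson intervals and points under 3 UMIs not drawn. *Cxcl1* was highest in mural-like and muscle satellite-like cells, and *Cxcl2* in neutrophil-like and mononuclear phagocyte-like cells.

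Within the dFB-like class, cells were split by UMIs of single genes that vary among fibroblasts, a split chosen after the values had been seen. Cells with *C7* or *Gdf10* had the highest *Cxcl1* level, 957 (927 to 987) in 466 control cells and 995 (956 to 1035) in 206 ACD cells. Cells with *Pi16*, a gene of progenitor-like fibroblasts, were at 437 and 524, and cells with *Cyp2f2* at 223 and 401. Cells with *Coch* or *Crabp1* had the lowest control level, 143 (136 to 150), and 310.2 (301 to 320) in ACD (log2 1.12, 1.04 to 1.20). The subsets that were low in control thus had the larger ratios, and the highest subset had one of 0.06 (-0.02 to 0.13). The subsets overlap and their levels share cells.

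Cells with *Cxcl9*, an interferon-induced chemokine, numbered 31 in control and 462 in ACD. Their *Cxcl1* level was 340 (282 to 406) in control and 631 (612 to 651) in ACD, whereas dFB-like cells without *Cxcl9* were at 359 and 387. In the mural-like class, cells with *Kcnj8*, a pericyte potassium channel gene, were at 3286 (3175 to 3399) in 215 control cells and 1655 (1576 to 1738) in 101 ACD cells (log2 -0.99, -1.08 to -0.90). Cells with *Myh11* and no *Kcnj8*, as in vascular smooth muscle, were at 1307 (1257 to 1359) and 1036 (996 to 1077). Their difference was smaller (log2 -0.34, -0.42 to -0.26). These intervals cover counting error only and neither condition had a replicate library. Whether the ratio differs between the mural-like subsets was therefore not tested.

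**Figure D3:**
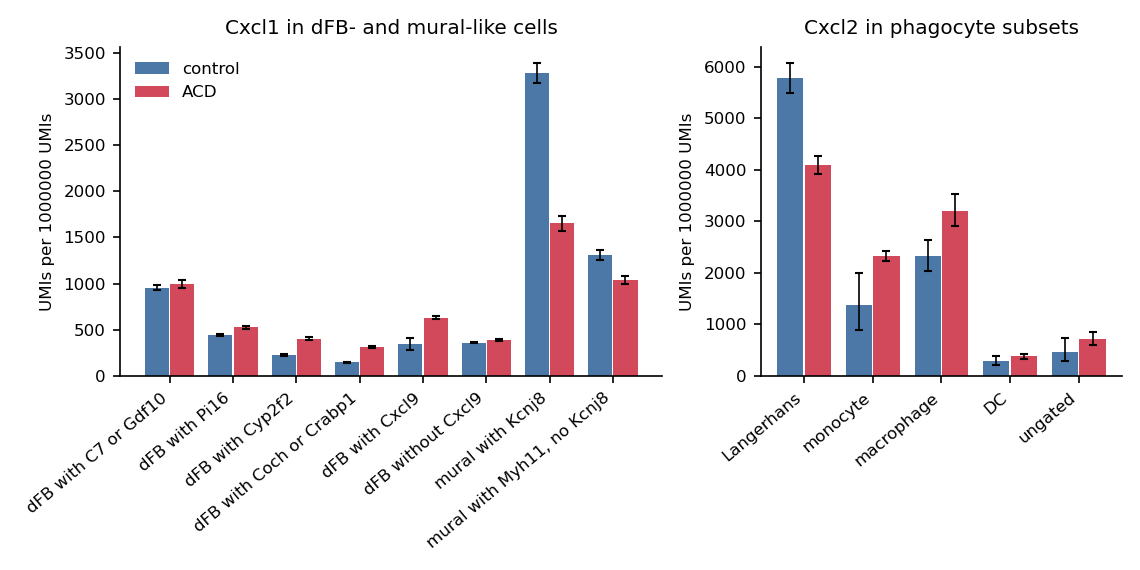
Left, *Cxcl1* levels in dFB-like and mural-like cells split by UMIs of single genes, and right, *Cxcl2* levels in mononuclear phagocyte-like cells split by marker lists, as UMIs per 1000000 with exact 95% Poisson intervals. *Cxcl1* was highest in mural-like cells with *Kcnj8* (3286 in control), and *Cxcl2* in Langerhans-like cells (5779 in control). Subsets chosen by single genes can overlap.

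*Cxcl2*, a paralog of *Cxcl1* best known from macrophages, was held by myeloid cells and, to a lesser share, stroma. Mononuclear phagocyte-like cells held 46.8% (45.3 to 48.4%) of its UMIs in control, 1833 of 3913. Their share in ACD was 44.2% (43.3 to 45.1%), 5053 of 11430. Neutrophil-like cells held 88 UMIs (2.25%) and 1196 (10.5%), and basophil-like cells 6 UMIs and 1565 (13.7%, 13.1 to 14.3%). dFB-like cells held 1053 (26.9%) in control and 1575 (13.8%) in ACD. Each of the 3 myeloid classes had more gated cells in ACD. The shares depend on depth. With cells thinned to 2000 UMIs, mononuclear phagocyte-like cells held 28.2%, basophil-like cells 28.1% and neutrophil-like cells 20.4% of the ACD *Cxcl2* UMIs.

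Within classes the *Cxcl2* level was higher in ACD in some and lower in others. In mononuclear phagocyte-like cells it was 3088 (2948 to 3232) in control and 2137 (2078 to 2197) in ACD (log2 -0.53, -0.61 to -0.45), and the log2 ratio was -1.02 with cells thinned to 2000 UMIs. Without the highest cell of each library the levels were 2350.3 and 1906. Neutrophil-like cells had the highest level of any class, 9408 (8882 to 9956) in the 61 ACD cells, and the 3 control cells were at 14718 (11804 to 18133). Basophil-like cells were at 1863 (1772 to 1958) in ACD, and 6 UMIs in 3 control cells give a log2 ratio of 1.80 with a wide interval (0.67 to 3.25). In dFB-like cells the level was 24.0 (22.6 to 25.5) in control and 47.9 (45.6 to 50.4) in ACD (log2 0.997, 0.88 to 1.11), a ratio that was 0.34 as a mean over cells and 1.64 with all barcodes. Chondrocyte-like cells were at 6.33 (5.30 to 7.51) and 23.8 (21.6 to 26.2), where 1 ACD cell held 252 of 425 UMIs and the level without it was 9.71, and the log2 ratio of 1.91 was 0.46 without Scrublet calls (predicted doublets). Endothelial-like cells were at 85.1 (67.9 to 105) and 35.6 (26.1 to 47.5), and mural-like cells at 91.2 (80.8 to 103) and 72.1 (63.3 to 81.6).

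Splitting the mononuclear phagocyte-like cells by subset markers gave ratios of both signs. Langerhans-like cells, the dendritic cells of the epidermis, had the highest *Cxcl2* level, 5779 in 32 control cells and 4088 in 38 ACD cells (log2 -0.50, -0.59 to -0.40). In control 1 of these cells held 460 of 1502 UMIs. Without the highest cell of each library the Langerhans-like levels were 4161 and 3346, a smaller difference. Macrophage-like cells were at 2324 in 18 control and 3198 in 22 ACD cells (0.46, 0.23 to 0.70). Here 1 control cell held 125 of 236 UMIs, and without the highest cell of each library the levels were 1154 and 2276. Monocyte-like cells numbered 5 in control, with 26 UMIs in 1 cell, and 121 in ACD, with 2102 UMIs in 27 cells and a level of 2322. In ACD 1 monocyte-like cell held 583 of these UMIs, and without it the level was 1714. DC-like cells were low, at 287 and 372. Monocyte-like cells were 5 of 79 phagocytes in control and 121 of 295 in ACD, so the makeup of the class differed as well as its level, and the part of makeup in the level was not tested.

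*Cxcl2* was concentrated in few cells. Only 331 control cells and 667 ACD cells had a UMI, and 18 and 29 of these held 50% of all UMIs. The highest cell was mononuclear phagocyte-like in both libraries, with 460 UMIs in control (11.8% of the total) and 583 in ACD (5.10%). *Cxcl1* was spread more widely, with 50% of its UMIs in 372 of 4370 and 244 of 3225 cells, and at most 1.04% of them in 1 cell. Thinned to 2000 UMIs, 92.9% (76.5 to 99.1%) of ACD neutrophil-like cells had a *Cxcl2* UMI, with 33 of the 61 cells left out as too shallow, against 27.0% (21.5 to 33.0%) of mononuclear phagocyte-like, 20.8% (15.4 to 27.0%) of basophil-like and 0.93% of T/NK/ILC-like cells. Unthinned, these shares were 85.2%, 34.9%, 24.0% and 2.37%.

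Basophil-like cells with *Cxcl2* held little neutrophil RNA. The 49 such cells of ACD held 16 UMIs of 1 of the 8 neutrophil markers, none had 3 of them, and 1358 of their 1565 UMIs lay in cells with fewer than 3 of 30 phagocyte markers. The 8 cells with 3 or more made up 16.3% of these 49, against 16.8% of the 155 basophil-like cells without *Cxcl2*. The gate itself favours cells with 1 set of markers, so few cells with 3 neutrophil markers could be in this class. Mixed cells held 463 more *Cxcl2* UMIs in ACD. In dFB-like cells of ACD the picture was less clean. Of 142 cells with *Cxcl2*, 28.9% carried at least 3 phagocyte markers, against 299 of the 2984 without, although 1230 of the 1575 UMIs lay in cells with fewer. These cells were also deeper, at medians of 14513 and 9489 UMIs, and the part of second cells in 1 droplet was not tested. In control dFB-like cells 1039 of 1053 UMIs lay in cells with fewer than 3 phagocyte markers.

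The 2 ligands were also counted within single cells. Among ACD dFB-like cells, 107 of 142 with *Cxcl2* also had *Cxcl1* (75.4%), against 39.9% of the rest. In mural-like cells it was 31 of 33 (93.9%) against 61.1%, and in mononuclear phagocyte-like cells 25 of 103 (24.3%) against 4.69%. Basophil-like cells differed, with *Cxcl1* in 2 of 49 cells with *Cxcl2* (4.08%) and 7 of 155 without (4.52%). The dFB-like cells with *Cxcl2* were deeper, as the medians above show, and so were mural-like (medians of 13712 and 9187 UMIs) and mononuclear phagocyte-like cells (9977 and 6136). Basophil-like cells had medians of 3899 and 3995, and the part of depth in these shares was not tested.

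*Cxcl5*, a ligand best known from epithelium and fibroblasts, was almost absent from control, where 30 UMIs lay in 20 cells. In ACD 1082 of 1437 UMIs (75.3%, 73.0 to 77.5%) were in dFB-like cells, at a level of 32.9 (31.0 to 35.0) against 0.25 in control (log2 7.04, 6.19 to 8.04). Of 3 of the 5 genes with at least 50 UMIs in dFB-like cells, *Cxcl5* alone passed the 2-fold limit, against 0.683% of 13180 genes, while *Cxcl2*, at 0.77 on this scale with 10 added, and *Cxcl1*, at 0.27, did not. With 1 UMI added the count was again 1 of 3, against 2.11% of genes higher and 0.455% lower.

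The value rests on very few cells. Of the ACD dFB-like cells, 84 of 3126 had a *Cxcl5* UMI, and 3 cells with 382, 221 and 160 UMIs held over 50% of the 1437 *Cxcl5* UMIs of kept cells. Without these 3 cells the log2 ratio was 5.28, and the dFB-like share of the gene was 47.3%. dFB-like cells with *Coch* or *Crabp1* held 960 of the 1082 UMIs, in 36 of 1230 cells, with no UMI in 1472 control cells, which makes the level at least 290.2-fold higher against a floor of 3 control UMIs. The overlapping cells with *Pi16* held 720 UMIs in 38 of 1040 cells, against 3 control UMIs, and cells with *Cyp2f2* 58 in 22 of 500. The shares of positive cells were 2.93%, 3.65% and 4.4%. The cell with 382 UMIs belonged to both of the first 2 subsets, and without it their levels were 43.9 in place of 72.8 and 28.0 in place of 59.7. T/NK/ILC-like cells had 155 UMIs in 14 cells, 92 of them in 1 cell, and cells without a gate 135 UMIs, 128 of them in 1 cell. *Cxcl3* was rarer still, with 50 ACD UMIs in 23 cells, 30 of them in 6 dFB-like cells and 18 of these in 1 cell, and 4 control UMIs.

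Most *Cxcl5* and *Cxcl3* UMIs of the ACD library lay outside the kept cells. The filter left out 3717 of 5154 *Cxcl5* UMIs (72.1%) and 209 of 259 *Cxcl3* UMIs (80.7%), compared with 29.2% of *Cxcl1*, 20.8% of *Cxcl2* and 8.21% of *Cxcr2*. In control it left out 3.75% of *Cxcl1* and 2.71% of *Cxcl2*, and none of the UMIs of the others. Of the left-out ACD UMIs, 3712 of *Cxcl5*, 208 of *Cxcl3*, 11484 of *Cxcl1*, 2644 of *Cxcl2* and 15 of *Cxcr2* sat in 667 barcodes above the limits for genes or UMIs. Barcodes with 8% or more mitochondrial UMIs held a further 363 of *Cxcl2* and 8 of *Cxcr2*. In control, 173 barcodes were above the limits, with 1091 *Cxcl1* and 63 *Cxcl2* UMIs, and 136 and 46 lay in barcodes with 8% or more mitochondrial UMIs. Gated by the same markers, 228 such ACD barcodes were dFB-like, with a median of 29534 UMIs. Their *Cxcl5* level was 457 (3416 UMIs in 39 barcodes), against none in 71 such control barcodes. With all deposited barcodes in the comparison, the log2 ratio of *Cxcl5* in dFB-like cells was 8.86.

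The barcodes rich in *Cxcl5* were also compared with the rest for other genes. When all barcodes were gated together, 29 dFB-like ACD barcodes had at least 10 *Cxcl5* UMIs, 10 among the kept cells and 19 above the limits. All 29 also held *Cxcl1*, at 5410.2 per 1000000 in the kept ones against 409 in the other 3118 kept dFB-like cells, and 3736 against 775 above the limits. *Cxcl3* was found in 2 of the 10 and 12 of the 19, but in 4 of the 3118 and none of the 209 others. *Cxcl2* was found in 5 of the 10 and 13 of the 19, at 2910.0 against 32.9 and at 810.3 against 98.8. *Crabp1* was present in 6 of the 10 and 17 of the 19, at 1124 against 283 and 1516 against 176. *Coch* was lower than in the rest, at 504 against 1881 and 14.9 against 276. The acute-phase gene *Saa3*, found in 5 of the 10 and 14 of the 19, was at 1241 against 682 and 3601 against 1247. *Col1a1* was lower, at 3092 against 5804 and 3701 against 7071. *Cxcl9* was at 316 against 306 and 28.7 against 498. These values describe cells picked for *Cxcl5* and carry no test, and the rich barcodes were deeper, with medians of 18081 and 47543 UMIs. Whether barcodes above the limits hold 1 cell was not tested.

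**Figure D4:**
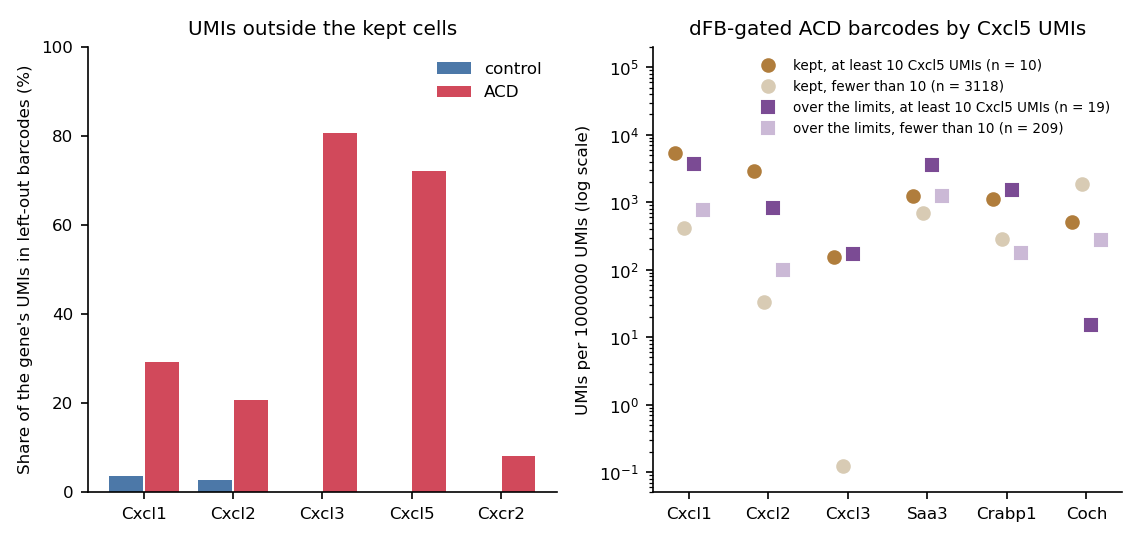
Left, the share of each gene's UMIs (percent) in barcodes that the filter left out, in both libraries. Right, levels of 6 genes (UMIs per 1000000, log scale) in dFB-gated ACD barcodes with at least 10 *Cxcl5* UMIs and with fewer, kept or above the limits. *Cxcl1*, *Cxcl2* and *Crabp1* were higher in the barcodes rich in *Cxcl5* on both sides of the filter, and *Cxcl3* had no UMI in the 209 others above the limits, so no point is drawn.

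*Cxcr2* was held by granulocytes. In ACD, neutrophil-like cells had 86 of 257 UMIs (33.5%, 27.7 to 39.6%) and basophil-like cells 106 (41.2%, 35.2 to 47.5%). Per class total the neutrophil-like level was 676 (541 to 835) and the basophil-like level 126 (103 to 153), so basophil-like cells held more of the UMIs by number and not by level. A *Cxcr2* UMI was found in 43 of 61 neutrophil-like cells (70.5%, 57.4 to 81.5%) and 72 of 204 basophil-like cells (35.3%, 28.7 to 42.3%), at medians of 1958 and 3988.5 UMIs, against 4 of 3075 T/NK/ILC-like and 9 of 3126 dFB-like cells. Thinned to 2000 UMIs the shares were 60.7% (40.6 to 78.5%) and 22.3% (16.7 to 28.7%), with 0 of 3020 T/NK/ILC-like and 0 of 241 mononuclear phagocyte-like cells (upper limits of 0.122% and 1.52%).

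Neutrophil RNA was scarce in these basophil-like cells too. The 72 positive cells held 10 UMIs of neutrophil markers in all, over 3 of 8 genes (31.4 per 1000000), and the 132 negative ones 42 UMIs (80.6). *S100a9*, the most abundant of these markers at 88296 per 1000000 in neutrophil-like cells, was at 8.34 in basophil-like cells, *Trem1* at 51.2 against 1180.0 was the least unequal, and *Csf3r*, *Ly6g*, *Retnlg* and *Stfa2l1* were at 0 there. Neutrophil-like cells in turn had no UMI of any of 7 basophil markers. The gate itself favours cells with 1 set of markers, and 25 more *Cxcr2* UMIs lay in mixed cells. In control, 14 UMIs were spread over 11 cells, 3 of them in 1 of the 3 neutrophil-like cells and 2 in 1 of the 3 basophil-like cells, too few for a ratio within either class. Mononuclear phagocyte-like cells, rich in the ligand *Cxcl2*, had 4 *Cxcr2* UMIs in 295 ACD cells.

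The genes most like each member were sought over 29 points (16 classes in 2 libraries, at least 20 cells each), by Pearson's r of log2 levels with 10 added, as a description in which points share libraries and depth. For *Cxcl1* these included *Tubb6* (0.84), *Dmpk* (0.83), *Errfi1* (0.82) and *Gpx3* (0.81). For *Cxcl2* they were *Cfp* (0.89), which encodes properdin, *Il1b* (0.89), *Cd300a* (0.88), *Alox5ap* (0.87), which serves leukotriene synthesis, and the inflammasome sensor *Nlrp3* (0.87). *Cxcl5* was nearest to *Saa3* (0.80), *Reg1* (0.79), *Serpina10* (0.78), *Wnt2b* (0.70) and *Ankrd55* (0.69), of which all but *Ankrd55* were highest at the single point of ACD dFB-like cells, and *Reg1* had 53 UMIs. *Cxcr2* was nearest to *Trem1* (0.96), which was a marker in the neutrophil gate, *Irg1* (0.95), *4833407H14Rik* (0.95), *Cyp4f18* (0.95) and the complement receptor gene *C5ar1* (0.94). Among the members the highest r was 0.60, between *Cxcl2* and *Cxcr2*, and *Cxcl1* with *Cxcl2* gave 0.21.

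Other genes of the axis were taken from lists chosen with earlier results of these data known, so counts of list genes past the limit are a description. Of the further CXCR2-axis genes, *Ppbp*, *Cxcl15* and *Cxcr1* had 5, 0 and 3 UMIs in both libraries together. *Ackr1*, an atypical receptor that takes up chemokines on venules, had 3209 UMIs in control and 1421 in ACD. Its UMIs were 89.8% and 74.3% in dFB-like cells, where its level was 65.7 and 32.1 (log2 ratio -1.03 with none added), and 4.89% and 19.2% in endothelial-like cells, at 159 and 212. With 10 added it stayed within 2-fold in both.

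Other genes of the same stretch of chromosome 5 were also listed. *Pf4*, the platelet factor 4 gene that resident macrophages also express, had 760 UMIs in control and 74 in ACD. In mononuclear phagocyte-like cells its level was 1137 and 17.3, so it passed the 2-fold limit downward, against 3.03% of genes lower. *Areg*, which encodes amphiregulin, passed it upward there (5.05 and 23.7, from 3 and 56 UMIs), against 3.66% of genes higher. *Areg* was held mostly by T/NK/ILC-like cells (54.9% of 779 UMIs and 80.2% of 2484). The part of RNA from that class in its phagocyte-like level was not tested. *Ereg* had 429 and 230 UMIs, 62.9% and 89.1% in dFB-like cells, *Mthfd2l* 2912 and 2552, and *Epgn* 4 and 5. In dFB-like cells none of the 4 genes tested (*Pf4*, *Mthfd2l*, *Areg*, *Ereg*) passed the limit in either direction.

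The cytokines known to induce the ligands were held by T/NK/ILC-like and myeloid cells. *Il17a* had 670 UMIs in control and 4690 in ACD, 81.2% and 81.8% of them in T/NK/ILC-like cells, and *Il17f* 220 and 2284, 80.0% and 85.4% there. *Il1b* had 736 and 8526, led by mononuclear phagocyte-like (49.1% in ACD) and neutrophil-like cells (21.7%). *Il1a* had 3 and 79 UMIs, 81.0% of the ACD ones in mononuclear phagocyte-like cells, and *Tnf* 879 and 2826, 59.8% of the latter in T/NK/ILC-like cells. Within T/NK/ILC-like cells none of the 4 tested passed the 2-fold limit. Within mononuclear phagocyte-like cells 3 of 4 were higher, against 3.66% of genes, *Il1b* (778 and 1771), *Il1a* (1.68 and 27.1) and *Il17a* (3.37 and 44.8), the last from 2 and 106 UMIs of a gene that belongs to the T/NK/ILC-like class. *Cxcl2* did not pass the limit in the same cells.

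Receptors and the adaptor for these cytokines were counted in the same classes. In dFB-like cells all 6 were tested and none passed the 2-fold limit in either direction. Their levels in control and ACD were 94.3 and 70.2 for *Il1r1*, 30.7 and 28.2 for *Il17ra*, 16.6 and 19.6 for *Il17rc*, 129 and 119 for *Tnfrsf1a*, 12.3 and 11.1 for *Traf3ip2*, the adaptor of the IL-17 receptor, and 45.9 and 43.2 for *Myd88*. In mural-like cells *Il1r1* was at 189 and 126, and again none of the 6 passed. ACD neutrophil-like cells, with the highest *Cxcl2* level, had no UMI of *Il1r1*, *Il17rc* or *Traf3ip2*, and basophil-like cells had 2, 0 and 0. In neutrophil-like cells the upper limit of such a zero was a level of 29.0. This lies above the dFB-like levels of *Il17rc* and *Traf3ip2*, so these zeros cannot show a lower level than in dFB-like cells. The other genes of the list were present, with *Il17ra* at 330, *Tnfrsf1a* at 212 and *Myd88* at 173 in ACD neutrophil-like cells. ACD basophil-like cells were at 110, 16.7 and 60.7.

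Genes of NF-κB feedback and of mRNA decay were near even in dFB-like cells, with none of 5 past the limit and a list median of 0.02, against -0.0028 over all genes. *Nfkbia*, the IκBα gene, was at 2327 and 2216, *Nfkbiz* at 232 and 278, *Tnfaip3* at 221 and 215, *Zc3h12a*, which encodes a nuclease for such mRNAs, at 22.2 and 24.1, and *Zfp36*, which encodes the decay factor tristetraprolin, at 2156 and 2188. In mural-like cells, where *Cxcl1* was lower in ACD, the 5 genes had a median of -0.30, against -0.04 over all genes, with *Zfp36* at 1613 and 1008, and none passed.

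Of the genes known to be co-induced with the ligands, 2 of 5 tested in dFB-like cells were higher, against 0.683% of genes, *Saa3* (5.70 and 686) and *Lcn2* (2.17 and 110.0). With 1 UMI added 3 of 5 were higher, against 2.11%. Both encode secreted acute-phase proteins, and 97.4% of 23128 *Saa3* UMIs of ACD lay in dFB-like cells. *Il6* (43.6 and 48.8), which mural-like cells shared with dFB-like cells, *Ptgs2* (58.6 and 88.1) and *Csf3* (0.34 and 2.19) did not pass. *Csf3*, the granulocyte growth factor gene, had 179 and 385 UMIs, led by endothelial-like cells (78.8% and 56.4%), and *Ccl20* 23 and 107, led by keratinocyte-like cells. *Ptgs2*, the cyclooxygenase-2 gene, was higher in mural-like (2.31 and 16.3) and mononuclear phagocyte-like cells (82.5 and 478), against 0.994% and 3.66% of genes. It is a single gene picked from this list. *Il6*, of the same list, had 1800 and 1731 UMIs in mural-like cells.

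Other chemoattractant receptors accompanied *Cxcr2*. *C5ar1* had 25 UMIs in control and 258 in ACD, with 39.1% of the latter in basophil-like and 36.8% in neutrophil-like cells. *Fpr2* had 5 and 55, with 47.3% in neutrophil-like cells, and *Fpr1* 2 and 40, with 90.0% there. *Ptafr* had 82 and 287, led by mononuclear phagocyte-like cells in ACD (41.8%), and *Ltb4r1*, a leukotriene B4 receptor gene, 291 and 1437, led by T/NK/ILC-like cells (67.3%). The same pair of granulocyte classes thus led *Cxcr2* and *C5ar1*, and other classes led *Ptafr* and *Ltb4r1*.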

How the data were processed

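One control and 1 ACD library of mouse ear skin were analysed. The authors deposited raw UMI counts for each gene in each barcode, made with Cell Ranger (3.1.0 in the submitters' processing notes, another version in the methods) on mm10. The limit of 25000 UMIs is printed as a lower limit in the methods and was read as an upper one. The genes, marker lists and gene lists were chosen with earlier results of these data known, and gate thresholds after values had been seen.

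A cell was gated on the mean scaled level of a class's markers (15 classes, and 4 phagocyte subset lists). It needed 3 markers with a UMI, a score of 0.1 and 1.5 times the score of the next class, and a phagocyte subset needed 2 markers. Levels are UMI sums per 1000000. Intervals (Poisson, Clopper-Pearson and conditional exact for ratios, all at 95%) cover counting error only, since cells are not replicates. The floor is 3 UMIs. Gene counts past 2-fold used at least 50 UMIs and 10 per 1000000 added, in classes with at least 50 cells in each library or over all kept cells. Named genes were the 5 members, list genes with at least 50 UMIs, and the 5 genes most correlated with each member of at least 100 UMIs, of which 1 is not reported here. No doublets were removed (Scrublet calls were an alternative). Intervals were tested on simulated data. Positions come from GENCODE M21 (27722 of 27998 identifiers matched), promoters from RefSeq, where 4 of the 5 genes were found. Python 3.11.15, numpy 2.4.6, scipy 1.17.1, pandas 2.3.3 and scanpy 1.11.5 were used. The authors' cluster labels were not used here.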

Additional observations from a re-analysis of the deposited data

Results flagged for a closer look

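Ligand UMIs stood out in ACD barcodes that the comparisons above do not use, those with at least 5000 genes or over 25000 UMIs. In the 228 of them that were dFB-like, the level was 1121 UMIs per 1000000 for *Cxcl1*, 182 for *Cxcl2*, 19.8 for *Cxcl3* and 457 for *Cxcl5*. In 71 such control barcodes the levels were 208 and 3.37 for *Cxcl1* and *Cxcl2*, and no UMI of *Cxcl3* or *Cxcl5* was found. Their median depth was 29534 UMIs in ACD and 27053 in control. Keratinocyte-like barcodes above the limits held 59 *Cxcl3* UMIs in ACD, 57 of them in 1 barcode. Whether these barcodes are single cells was not tested. Each condition was 1 library, so the difference was not tested.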

How the results depend on the processing

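No paired analysis was possible because each condition was 1 library. None of the 9 log2 ratios recomputed changed sign under any alternative run. The ACD share of *Cxcl1* UMIs in dFB-like cells (50.7%) was 56.99% with all deposited barcodes, 52.5% with at least 500 genes and under 5% mitochondrial UMIs, 52.4% without Scrublet calls, 55.0% by Leiden clusters, 51.3% with 1 more marker required and 47.2% with cells thinned to 2000 UMIs. For *Cxcl2* in mononuclear phagocyte-like cells (44.2%) these were 39.0%, 46.0%, 46.9% and 47.1% for the first 4 alternatives, 28.2% thinned and 35.9% without the 3 ACD cells with the most UMIs of the gene (control cells stayed in), an alternative added after the data were seen. The *Cxcl5* share in dFB-like cells (75.3%) was 87.3% with all barcodes, 79.2% without Scrublet calls, 84.9% by clusters, 80.5% thinned and 47.3% without the 3 highest ACD cells. The *Cxcr2* share in neutrophil-like and basophil-like cells was 85.2% by clusters, 68.1% with 1 more marker and 84.4% thinned, against 74.7% as reported. The log2 ratio of *Cxcl1* in dFB-like cells (0.28) was 0.67 with all barcodes, 0.12 thinned, 0.0699 as a mean over cells and 0.23 without the 3 highest ACD cells. In mural-like cells (-0.73) it was -0.65 with all barcodes, -0.81 under the stricter filter, -0.63 by clusters and -0.66 with median-of-ratios size factors. *Cxcl2* in mononuclear phagocyte-like cells (-0.53) was -0.61 by clusters, -1.02 thinned, -0.76 as a mean over cells and -1.004 without the 3 highest ACD cells. *Cxcl5* in dFB-like cells (7.04) was 8.86 with all barcodes, 8.10 thinned and 5.28 without the 3 highest ACD cells. With 1 UMI per 1000000 added in place of 10, list genes at least 2-fold higher in ACD numbered 10 in place of 5 over all kept cells and 5 in place of 2 in dFB-like cells. The share of all genes rose too, from 1.99% to 5.57% and from 0.683% to 2.11%. List genes at least 2-fold lower numbered 0 to 2 over the alternatives, against 0.729% and 0.455% of all genes with 1 UMI added. Leaving out the barcodes found in both libraries, also added after the data were seen, moved none of these beyond its counting interval. The cause of these shifts was not tested. Depth limits *Cxcl3* and, in control, *Cxcl5* and *Cxcr2*, whose 4, 30 and 14 UMIs allow no ratio within most classes, and 3 control cells each stand for neutrophil-like and basophil-like cells.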
